A study of Mus musculus with 5 samples.

Results

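The HoxB cluster is a run of 10 Hox genes on mouse chromosome 11, and it is described here gene by gene for RING1B occupancy, as a part of the 37252 annotated genes examined. The members were Hoxb13, Hoxb9, Hoxb8, Hoxb7, Hoxb6, Hoxb5, Hoxb4, Hoxb3, Hoxb2 and Hoxb1, and all 10 were found in the annotation. The cluster was chosen by the measured RING1B peaks of these libraries, because it holds a wide control peak that the other lists lack. Presence and absence of peaks at the members are therefore a description and were not tested.

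RING1B is the catalytic subunit of PRC1 and was profiled by ChIP-Seq in mouse embryonic fibroblasts (MEFs) after paraformaldehyde crosslinking and digestion with micrococcal nuclease. Control cells were the parental MEFs, which came from a mouse embryo with loxP sites in the EED gene and keep EED as long as Cre is absent. The EZHIP and H3.3 K27M cells were derived from these MEFs with lentiviruses that carried human EZHIP or H3.3 K27M in a vector with the EF1a promoter and puromycin selection, so that all 3 lines carry the floxed EED alleles. EZHIP is a protein of posterior fossa ependymomas, H3.3 K27M is a mutant histone of childhood gliomas, and both inhibit PRC2. The series holds 5 samples with 1 library per group, and the H3.3 K27R library and the EED deletion line, which is a single clone, were not analysed here. Peak positions measure no transcript, so the fibroblast identity of the cells could not be checked against marker genes.

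Hox genes encode homeodomain transcription factors that give cells their position along the head-to-tail axis. In each cluster the genes lie in the order in which they are used, from anterior genes at the 3′ end (group 1) to posterior genes at the 5′ end (group 13). Polycomb proteins hold Hox genes silent outside the domain where each is needed: PRC2 methylates lysine 27 of histone H3, and PRC1, through RING1B, ubiquitinates histone H2A and compacts chromatin. Cultured fibroblasts are known to keep part of the Hox code of the body site from which they came.

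All 10 members are transcribed on the forward strand of chromosome 11, so the cluster reads from Hoxb13 to Hoxb1 along the chromosome (mm9). It spans 173941 bases, from the start of Hoxb13 at 96055630 to the end of Hoxb1 at 96229570. A member was taken to have a peak when a peak of the list overlapped its gene body or came within 5000 bases of its start. By this rule 8 of 10 members had a control peak, 4 had an EZHIP peak and 2 had an H3.3 K27M peak. Over all annotated genes the same rule was met by 3.16% in the control, 1.12% with EZHIP and 1.09% with H3.3 K27M. The whole lists differed in size, with 821 control, 311 EZHIP and 286 H3.3 K27M peaks. The paper, in contrast, reports that RING1B kept its number and general distribution with EZHIP or H3.3 K27M.

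The members fell into 4 contiguous blocks. Hoxb13 and Hoxb9 had a peak in all 3 lists. Hoxb8 and Hoxb7 had a peak in the control and EZHIP lists. Hoxb6, Hoxb5, Hoxb4 and Hoxb3 had a control peak alone, and Hoxb2 and Hoxb1 had no peak in any list. By this rule the last member with a peak, counted from Hoxb13, was Hoxb3 in the control, Hoxb7 with EZHIP and Hoxb9 with H3.3 K27M, although the peaks themselves ended inside Hoxb3, Hoxb8 and Hoxb9.

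**Figure D1:**
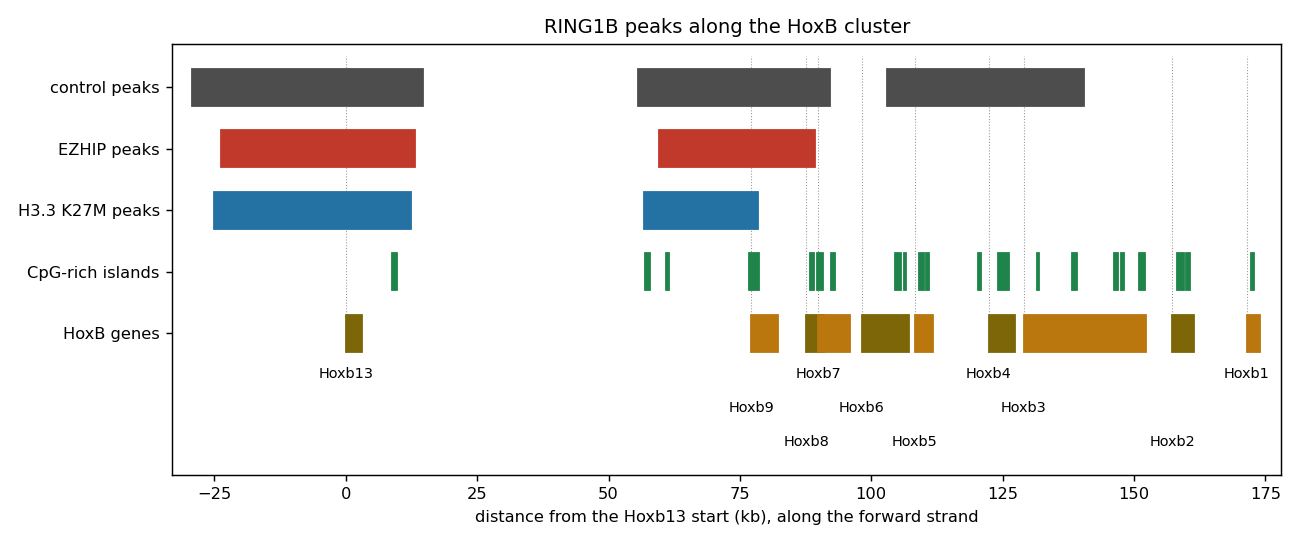
Positions of RING1B peaks in the control (grey), EZHIP (red) and H3.3 K27M (blue) lists along the HoxB cluster, with CpG-rich islands (green) and gene bodies (brown and ochre). The x axis gives the distance in kb from the Hoxb13 start, dotted lines mark gene starts, and each list is 1 library. The peak at Hoxb13 is present in 3 lists, the peak at Hoxb9 shortens from control to EZHIP to H3.3 K27M, and the peak from 103.0 to 140.6 kb is found in the control list alone.

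Of the 8 members with a control peak, 4 lacked an EZHIP peak. Among all 1176 genes with a control peak by this rule, 70.3% had no EZHIP peak. For H3.3 K27M, 6 of the 8 members had no peak, against 69.0% of all genes with a control peak. Both peaks were missing for 4 of the 8 members, against 60.6% of all genes with a control peak. The members share 3 control peaks and are not independent of each other, so these counts describe the cluster and are not a rate. Absence of a peak here means that none was listed, and the files hold no read count that would show how much RING1B signal was left.

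A pair of sequence sets show what lies in the kept and the lost parts. The first is a pair of microRNAs that are encoded within the cluster, 1 in each part. Mature sequences are from RefSeq and are printed 5′ to 3′, with the seed (bases 2 to 8) in capitals. Mir196a-1 lies between Hoxb13 and Hoxb9, and its hairpin at chr11:96126478-96126579 was inside a peak in all 3 lists. Mir10a lies within the Hoxb4 gene body at chr11:96178479-96178588, inside the control peak, 33480 bases from the nearest EZHIP peak and 44480 bases from the nearest H3.3 K27M peak. Members of the miR-196 family are known to cleave the Hoxb8 transcript, which is encoded downstream of Mir196a-1.
miR-196a-5p: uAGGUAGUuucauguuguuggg
miR-10a-5p: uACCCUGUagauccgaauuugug

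The second set is the promoters of Hoxb8, Hoxb4 and Hoxb1, which stand for the block covered in the control and EZHIP lists, the block covered in the control alone and the block covered in no list. Each window holds 250 bases before and 50 bases after the RefSeq start. The table of RefSeq promoters (GRCm38) held 3 of the 10 members, and each of these sequences matched mm9 exactly at 1 place on the forward strand. Capitals mark CpG dinucleotides, searched as the letters CG, which read the same on both strands. The Hoxb8 window is at chr11:96142969-96143268, the Hoxb4 window at chr11:96179331-96179630 and the Hoxb1 window at chr11:96226822-96227121.
Hoxb8 promoter: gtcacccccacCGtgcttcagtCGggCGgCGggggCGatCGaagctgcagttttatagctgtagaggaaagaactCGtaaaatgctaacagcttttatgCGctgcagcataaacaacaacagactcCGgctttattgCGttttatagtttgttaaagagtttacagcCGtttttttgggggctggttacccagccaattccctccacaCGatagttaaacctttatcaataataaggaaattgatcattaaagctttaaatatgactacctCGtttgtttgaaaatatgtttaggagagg
Hoxb4 promoter: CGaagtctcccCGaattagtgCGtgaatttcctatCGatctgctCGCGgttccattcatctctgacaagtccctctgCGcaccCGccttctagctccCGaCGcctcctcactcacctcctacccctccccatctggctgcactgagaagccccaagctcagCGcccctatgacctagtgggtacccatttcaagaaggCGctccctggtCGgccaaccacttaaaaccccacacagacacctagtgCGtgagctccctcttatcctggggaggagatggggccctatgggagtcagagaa
Hoxb1 promoter: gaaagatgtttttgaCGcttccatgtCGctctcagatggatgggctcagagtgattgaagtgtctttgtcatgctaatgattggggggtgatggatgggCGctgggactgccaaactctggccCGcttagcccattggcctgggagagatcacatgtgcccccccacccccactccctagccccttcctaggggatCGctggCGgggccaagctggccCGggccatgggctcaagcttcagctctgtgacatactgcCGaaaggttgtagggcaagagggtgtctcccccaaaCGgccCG

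The Hoxb8 window held 13 CpG, the Hoxb4 window 14 and the Hoxb1 window 10. Among the 32851 promoter windows of the table the median was 7 CpG, and 37.9%, 36.3% and 43.5% of windows held at least as many as Hoxb8, Hoxb4 and Hoxb1, respectively. The RefSeq start of Hoxb4 lies downstream of its annotated start, where 300 bases held 3 CpG, the fewest of the 10 members, against 13 at the annotated start of Hoxb8 and 9 at that of Hoxb1. The Hoxb8 start was inside a control and an EZHIP peak and 9220 bases from an H3.3 K27M peak. The RefSeq start of Hoxb4 was inside the control peak and 34582 bases from the nearest EZHIP peak, and that of Hoxb1 was 30873 bases from the nearest control peak.

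The first control peak of the cluster contained Hoxb13, the most posterior member, which acts in the tail bud and later in the prostate and colon. It ran from 96026401 to 96070399 and spanned 43999 bases, the fifth widest of 821 control peaks. The EZHIP peak at this place spanned 36999 bases (96031801 to 96068799) and the H3.3 K27M peak 37399 bases (96030601 to 96067999). Both lay within the control peak and covered 84.1% and 85.0% of it.

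This peak was shortened from both ends in both lists. On the left the EZHIP peak began 5400 bases and the H3.3 K27M peak 4200 bases inside the control peak. On the right they ended 1600 and 2400 bases inside it. Hoxb13 (ENSMUSG00000049604.3, 96055630 to 96058761) was covered over its full gene body, its full coding sequence and all 10001 bases within 5000 bases of its start in every list. The control peak began in a UTR exon of Ttll6, a tubulin glutamylase gene upstream of the cluster, and its other edge was intergenic. All 4 edges of the EZHIP and H3.3 K27M peaks at Hoxb13 were intergenic.

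The second control peak, from 96111201 to 96147799, spanned 36599 bases and contained the starts of Hoxb9, Hoxb8 and Hoxb7. It was separated from the first by 40801 bases that no list covered. With EZHIP it was shortened to 29799 bases (96115201 to 96144999), and with H3.3 K27M to 21599 bases (96112401 to 96133999), which are 81.4% and 59.0% of the control peak. The EZHIP peak was 4000 bases shorter on the left and 2800 on the right. The H3.3 K27M peak was 1200 bases shorter on the left and 13800 on the right. Nearly all of its shortening thus lay on the side of the anterior genes.

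Hoxb9 (ENSMUSG00000020875.8, 96132771 to 96137909), which patterns the thoracic skeleton and the mammary gland, had its start in a peak in all 3 lists. Its gene body was covered to 100% in the control, 100% with EZHIP and 23.9% with H3.3 K27M. The H3.3 K27M peak ended 1228 bases downstream of the Hoxb9 start, inside its intron, and covered 68.9% of the coding sequence. Hoxb9 was thus the only member that kept part of its gene body in the H3.3 K27M list and all of it in the EZHIP list.

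Hoxb8 (ENSMUSG00000056648.4, 96143219 to 96146639) is used in spinal cord and in blood progenitors. Its gene body was covered to 100% in the control and to 52.1% with EZHIP, and no base of it was covered with H3.3 K27M. Its coding sequence was covered to 100%, 58.2% and 0%. The EZHIP peak ended in the intron of Hoxb8, so the edge separates the start and the upstream coding exon of this gene from its downstream part.

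Hoxb7 (ENSMUSG00000038721.7, 96145571 to 96151650), a neighbour that overlaps the 3′ end of Hoxb8, lay at the edge of the second peak. The control peak covered its start and 36.7% of its gene body and ended in its UTR exon, before the coding sequence. The EZHIP peak ended 572 bases upstream of the Hoxb7 start and touched neither gene body nor coding sequence. Hoxb7 therefore counts as kept with EZHIP by the window alone, of which 44.3% was covered, against 72.3% in the control. With H3.3 K27M the nearest peak was 11572 bases from the start.

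**Figure D2:**
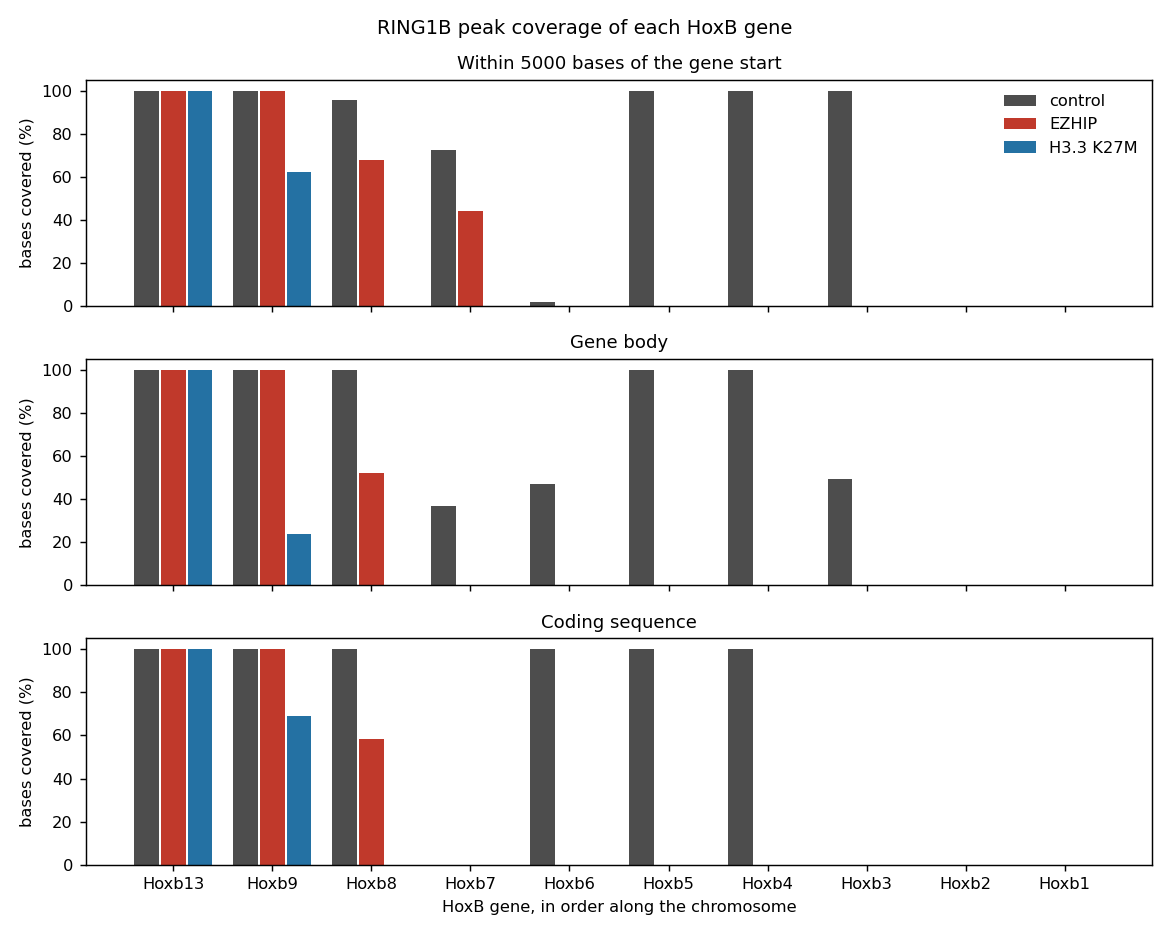
Percentage of bases covered by RING1B peaks for each HoxB gene in the control (grey), EZHIP (red) and H3.3 K27M (blue) lists, 1 library each, within 5000 bases of the start (top), over the gene body (middle) and over the coding sequence (bottom). Hoxb13 is covered in full in each panel and list, Hoxb9 drops to 23.9% of its gene body with H3.3 K27M alone, and from Hoxb6 on there are control bars only.

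The third control peak, from 96158601 to 96196199, spanned 37599 bases and had no overlapping peak in either other list. It lay 10801 bases beyond the second and contained the starts of Hoxb5, Hoxb4 and Hoxb3. Among the 159 control peaks of at least 10000 bases, 18 had no overlap with either list. Over these 159 peaks the covered percentage had a median of 22.1% with EZHIP (quartiles 0 and 59.2%) and 62.7% with H3.3 K27M (quartiles 28.0 and 77.8%). The peaks at Hoxb13 and Hoxb9 were above the upper quartile for EZHIP, the third was at 0 for both, and for H3.3 K27M the Hoxb13 peak was above the upper quartile and the Hoxb9 peak just below the median.

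Hoxb6 (ENSMUSG00000000690.3, 96153790 to 96162883) has its annotated start in the gap between the second control peak and the third. That start was 4811 bases from the control peak, 8791 bases from the EZHIP peak and 19791 bases from the H3.3 K27M peak. The control peak began in an intron of Hoxb6 and covered 47.1% of the gene body and 100% of the coding sequence. A second coding transcript of Hoxb6 starts at 96160269, and this start lay inside the control peak. At the limit of 5000 bases, the Hoxb6 start in the control, at 4811 bases, was just inside, and Hoxb6 with EZHIP and Hoxb8 with H3.3 K27M, at 8791 and 9220 bases, were the nearest outside.

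Hoxb5 (ENSMUSG00000038700.3, 96163909 to 96167434), which acts in the gut nervous system and the lung, was covered over its full gene body, coding sequence and start window in the control. Hoxb4 (ENSMUSG00000038692.7, 96177998 to 96182952), known for the expansion of blood stem cells, was covered in full in the same 3 measures. Both were bare in the other lists. The nearest EZHIP peak was 18910 bases from the Hoxb5 start and 32999 bases from the Hoxb4 start. The nearest H3.3 K27M peak was 29910 and 43999 bases away. These genes combined complete coverage in the control with no coverage in the transduced lines.

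Hoxb3 (ENSMUSG00000048763.5, 96184640 to 96207999), a hindbrain gene, is the longest member at 23360 bases, and its coverage depended on the part of the gene. The control peak covered 49.5% of its gene body and all of its start window, and ended in an intron 11559 bases downstream of the start. Its coding sequence lies from 96205563 to 96207710, beyond the peak, and 0% of it was covered in any list. The start of a shorter coding transcript, at 96205083, was 8884 bases from the control peak. Hoxb3 thus had a control peak at its distal start and none at its coding exons.

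Hoxb2 (ENSMUSG00000075588.4, 96212946 to 96217003) and Hoxb1 (ENSMUSG00000018973.2, 96227066 to 96229570) specify hindbrain segments and the facial nerve. Neither had a peak in any list. The control peak ended 16747 bases from the Hoxb2 start and 30867 bases from the Hoxb1 start. With EZHIP the distances were 67947 and 82067 bases, and with H3.3 K27M 78947 and 93067 bases. The anterior end of the cluster was therefore without listed RING1B peaks already in the control MEFs.

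The start base itself was inside a control peak for 7 members, inside an EZHIP peak for 3 and inside an H3.3 K27M peak for 2. The start codon was inside a control peak for 6 members, an EZHIP peak for 3 and an H3.3 K27M peak for 2. Start bases and start codons were not counted over all genes, so these counts describe the cluster alone. Summed over the 65270 bases of the 10 gene bodies, 58.6% was covered in the control, 15.4% with EZHIP and 6.68% with H3.3 K27M. Of the 8469 coding bases, 53.9%, 24.0% and 16.2% were covered. The order of the 3 lists was the same in each of these measures.

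Over the span from Hoxb13 to Hoxb1, peaks covered 88968 bases (51.1%) in the control, 42969 bases (24.7%) with EZHIP and 33969 bases (19.5%) with H3.3 K27M. Of the control bases in the span, 48.3% were also covered with EZHIP, 38.2% with H3.3 K27M and 35.0% with both. No base of the span was covered with EZHIP or H3.3 K27M outside a control peak, and the same held in HoxA, HoxC and HoxD. In the whole genome, 1325771 of 1812689 EZHIP bases and 2043569 of 2302714 H3.3 K27M bases lay in control peaks. Over all peaks, 24.1% of control bases were also covered with EZHIP and 37.1% with H3.3 K27M. The span leaves out the part of the first peak upstream of Hoxb13, and over the 3 whole control peaks of the cluster the shares were 56.5% with EZHIP and 49.9% with H3.3 K27M. Both shares were thus above those over all peaks, and the order of the transduced lines was the opposite. The share depended on the part of the cluster: from the Hoxb9 start to the Hoxb1 end, 23.2% of control bases were also covered with EZHIP and 2.34% with H3.3 K27M.

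When the 3 control peaks were taken whole, 46.5% of their 118197 bases were kept in both transduced lines, 9.98% with EZHIP alone, 3.38% with H3.3 K27M alone and 40.1% in neither. The same shares of all control bases in the genome were 19.8%, 4.25%, 17.3% and 58.6%. The bases covered with EZHIP and not H3.3 K27M were mostly 1 stretch of 11000 bases from 96134000 to 96144999, which holds the Hoxb8 start. The bases covered with H3.3 K27M and not EZHIP formed stretches of 2800 and 1200 bases, with no member start. The lines therefore differed at HoxB mainly between Hoxb9 and Hoxb8.

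Sequence composition was compared between the kept and the lost parts, since CpG-rich sequence is known to recruit Polycomb complexes. CpG-rich islands were computed from mm9 as windows of 500 bases in which G and C made up 55% or more and CpG reached 0.65 or more of the number that base composition predicts. From the left edge of the first control peak to the end of Hoxb1 there were 22 islands, of which 15 were covered in the control. With EZHIP 4 of the 15 had a peak (26.7%), and with H3.3 K27M also 4 (26.7%), 1 of them in part. Of all islands with a control peak in the genome, 22.4% had an EZHIP peak and 34.5% an H3.3 K27M peak. Neither line had a peak at 10 of the 15 (66.7%), against 60.3% of the 1344 islands with a control peak in the genome.

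Of the 15 islands with a control peak, the lost part held 10. The third control peak alone held 9 islands, and islands made up 16.9% of the bases covered in the control alone. Of the bases covered in all 3 lists, islands made up 5.27%. CpG density was 2.50 per 100 bases in the part covered by the control alone, 1.94 in the part covered in all 3 lists and 1.67 in the part with no peak. In the parts kept in a single line it was 2.43 for EZHIP, with 1001 of 11800 bases in islands, and 2.52 for H3.3 K27M, with 1000 of 4000 bases in islands, the highest share of these parts. Over all control peaks, bases in the control alone also had more CpG than bases in all 3 lists, at 3.69 and 2.99 per 100 bases.

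The starts of the kept genes, Hoxb13 and Hoxb9, differed in their distance to an island. The Hoxb9 start lay inside an island of 1800 bases, and the 300 bases at this start held 23 CpG, the most of the 10 members. The Hoxb13 start lay 8871 bases from the nearest island, the farthest of the 10 members, and the 300 bases there held 16 CpG. The same count was 11 at Hoxb6, 11 at Hoxb5, 3 at Hoxb4 and 9 at Hoxb3, fewer than at both kept starts. The Hoxb7 start lay in a control peak alone, with the nearest EZHIP peak 572 bases away. It was inside an island and held 20 CpG, more than the Hoxb13 start. None of the 4 genes with a control peak alone had its annotated gene start inside an island. These starts of Hoxb6, Hoxb5, Hoxb4 and Hoxb3 lay 4990, 892, 1398 and 2461 bases from one. The second coding transcript of Hoxb6, however, starts at 96160269, inside an island. The start codons of Hoxb9, Hoxb8, Hoxb7, Hoxb6, Hoxb5 and Hoxb4 lay inside islands, and that of Hoxb3 lay 938 bases from one. These are descriptions of few sites, and no test was made of them.

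**Figure D3:**
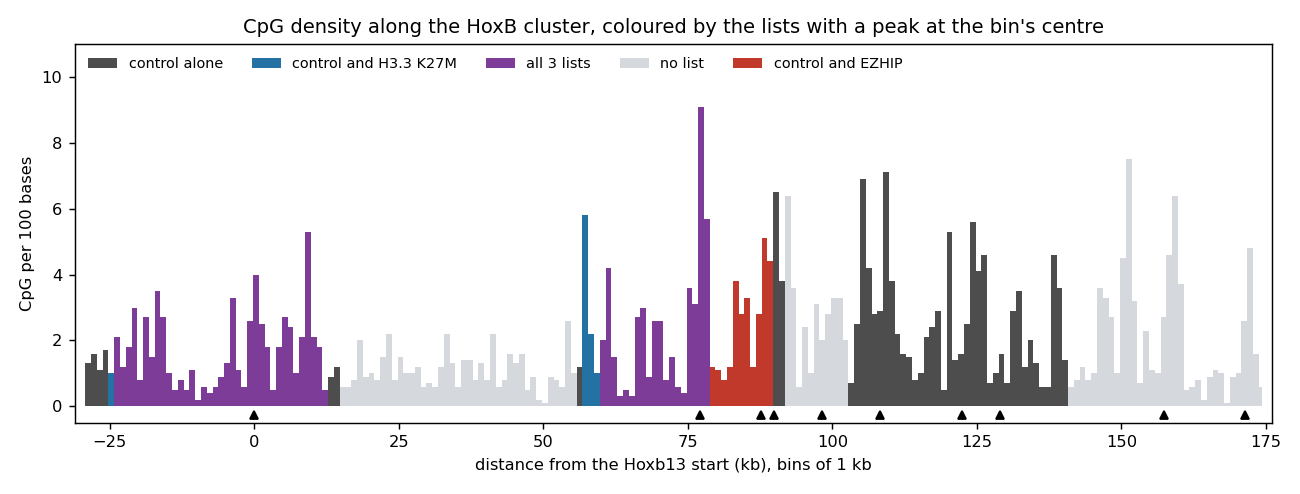
CpG dinucleotides per 100 bases in bins of 1 kb along the HoxB cluster, against the distance in kb from the Hoxb13 start. Bars are coloured by the lists that had a peak at the centre of the bin, and triangles mark the starts of the 10 genes. The control peak lost in both other lists (103.0 to 140.6 kb) averages 2.57 CpG per 100 bases, the part kept around Hoxb9 in all 3 lists 2.33 and the part kept around Hoxb13 1.73.

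The annotation holds 10 further entries in the span, with Mir196a-1 and Mir10a entered under 2 types each, and 8 had a control peak, 4 an EZHIP peak and 5 an H3.3 K27M peak. Gm53, between Hoxb13 and Hoxb9, was covered to 100% in the control, 79.8% with EZHIP and 100% with H3.3 K27M, and the lincRNA Gm11538, downstream of Hoxb13, to 100% in each list. The pseudogene Gm11539 had no base in a peak, but its start was within 5000 bases of a control and an H3.3 K27M peak and 5254 bases from an EZHIP peak, a state that no HoxB member had. The antisense transcript 0610040B09Rik, which overlaps Hoxb6 and Hoxb5, was covered to 60.6% in the control and to 0% in both other lists. Gm11536 and Hoxb3os, at the anterior end, had no peak, and peaks carry no strand, so occupancy of Hoxb6 and Hoxb5 cannot be told apart from that of their antisense partner.

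The flanks differed from each other. Ttll6, on the posterior side, was overlapped by control peaks over 10.6% of its body and had no peak in the other lists, and most of these bases belonged to a separate control peak upstream of the cluster. Skap1, on the anterior side, had its start 129708 bases from the nearest control peak. The first HoxB control peak reached the last exon of Ttll6, while the third ended before Hoxb2.

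HoxB was set beside the other Hox clusters by the same rule. Of the 29 genes of HoxA, HoxC and HoxD, 24 had a control peak, 16 an EZHIP peak and 12 an H3.3 K27M peak. Counted in control bases of each cluster, EZHIP also covered 59.4% in HoxA, 48.3% in HoxB, 68.8% in HoxC and 67.3% in HoxD. H3.3 K27M also covered 24.6% in HoxA, 38.2% in HoxB, 69.7% in HoxC and 73.7% in HoxD. HoxB and HoxA had the lower shares in both lines and more coverage with EZHIP than with H3.3 K27M, whereas in HoxD the H3.3 K27M share was the higher. In HoxC the shares were nearly equal, and 7 of its genes had an EZHIP peak and 5 an H3.3 K27M peak. With 1 library per line these differences between clusters were not tested.

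**Figure D4:**
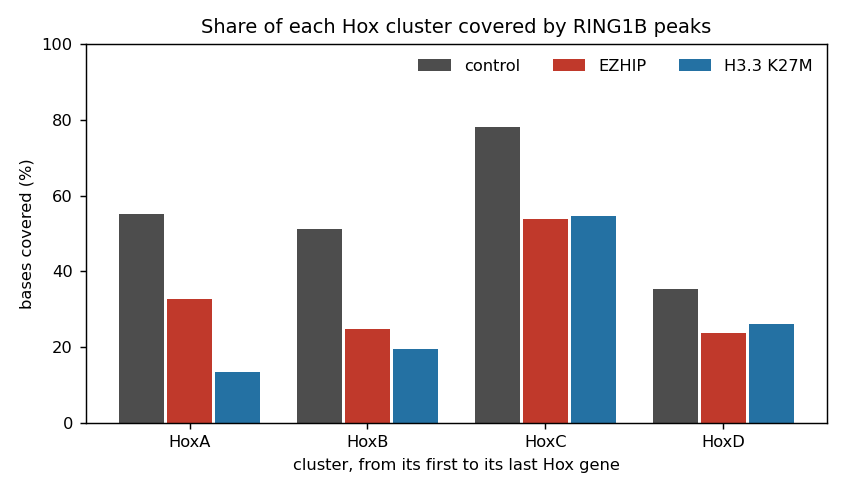
Percentage of the bases of each Hox cluster, from its first to its last Hox gene, covered by RING1B peaks in the control (grey), EZHIP (red) and H3.3 K27M (blue) lists, 1 library each. HoxB falls from 51.1% in the control to 24.7% with EZHIP and 19.5% with H3.3 K27M.

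The number in a Hox gene name gives its paralogue group, so the position of loss can be compared between clusters. In HoxB, both members of groups 9 to 13 had a peak with EZHIP and with H3.3 K27M. Of the 8 members of groups 1 to 8, 6 had a control peak, 2 an EZHIP peak and 0 an H3.3 K27M peak. In the other clusters, 14 of 14 genes of groups 9 to 13 had a control peak, 13 an EZHIP peak and 12 an H3.3 K27M peak. Of their 15 genes of groups 1 to 8, 10 had a control peak, 3 an EZHIP peak and 0 an H3.3 K27M peak.

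With H3.3 K27M all kept peaks thus lay at genes of groups 9 to 13, in HoxB and in the other clusters. With EZHIP, Hoxb8 and Hoxb7 in HoxB and Hoxa7, Hoxc5 and Hoxc4 elsewhere also had a peak. Of the other Hox genes with a control peak, 7 lacked both other peaks (Hoxa3, Hoxa5, Hoxa6, Hoxc6, Hoxc8, Hoxd3 and Hoxd8), 5 lacked the H3.3 K27M peak alone (Hoxa7, Hoxa9, Hoxa10, Hoxc4 and Hoxc5) and 1 lacked the EZHIP peak alone (Hoxd9). The split after group 8 was made with these values in view, and neighbouring genes share peaks, so no test was made of it. In HoxB the control lacked a peak at groups 1 and 2.

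**Figure D5:**
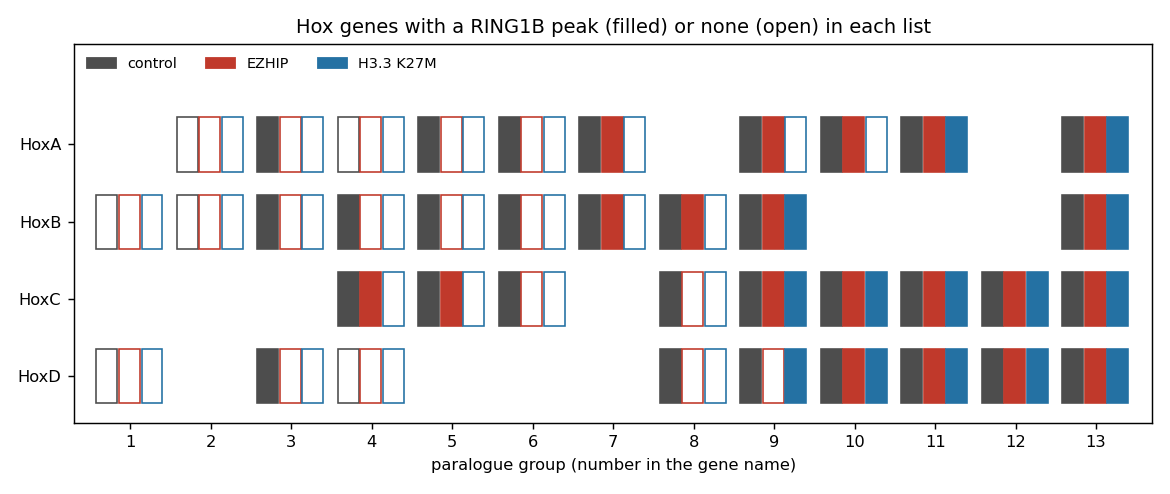
Presence (filled) or absence (open) of a RING1B peak at the Hox genes shown in the control (grey), EZHIP (red) and H3.3 K27M (blue) lists, by cluster (rows) and paralogue group (columns), from 1 library per list. In HoxB the filled boxes end at group 3 for the control, group 7 for EZHIP and group 9 for H3.3 K27M, and no H3.3 K27M box is filled in groups 1 to 8 of any cluster.

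Genes that act with Hox proteins or upstream of them were looked up as lists of known function. None of 9 genes for Hox cofactors of the Meis, Pbx and Pknox families had a peak in any list. Since only 3.16% of all annotated genes had a control peak, this absence is near the general share. Of 12 genes for upstream regulators, 6 had a control peak, 2 an EZHIP peak and 3 an H3.3 K27M peak. Aldh1a2, which makes retinoic acid, and Cyp26b1, which breaks it down, had a peak in all 3 lists. Cdx2, an activator of posterior Hox genes, had a control and an H3.3 K27M peak. Cyp26a1, Cyp26c1 and Egr2, a hindbrain regulator that acts on Hoxb2, had a control peak alone. These are 3 of the 6 regulators with a control peak, against 60.6% of all genes with a control peak.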

How the data were processed

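RING1B ChIP-Seq peak lists of 3 MEF lines were analysed, with 1 library per group. Per the methods of the study and the submitters' processing notes, the authors aligned reads to mm9 and a spike-in genome with Bowtie 1.0.0 at default parameters and obtained broad peaks with MOSAiCS-HMM, with a maximum gap of 10000 bases and a minimum size of 1000 bases. The gap of 10801 bases at the Hoxb6 start is slightly above that maximum. Stretches without enrichment up to that maximum can be joined into a single peak. Coverage of a gene body, coding sequence or island therefore need not mean RING1B signal at that place. The deposited lists give a chromosome, start and end per peak and no count, signal or p-value, so sequencing depth is unknown and limits on small differences cannot be given. All 1418 peaks were built from bins of 200 bases, and every edge is known only to that step.

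Peak starts were read as counted from 0 and are printed as 1-based positions, and both end bases count in a width. Genes were from GENCODE vM1, which annotates NCBIM37, the assembly behind mm9, and every peak lay within its chromosome there. Of the 2 entries for Hoxa3, the shorter was used. Overlaps, distances to the gene start and covered bases were computed in Python 3.11.15 with numpy 2.4.6 and drawn with matplotlib 3.10.9. In the plot of peaks by paralogue group, 1 gene outside HoxB is not reported here. Overlap meant at least 1 base. The interval code passed 2000 checks on simulated intervals. Coding sequence is the union over protein-coding transcripts.

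All 10 members, every other gene of the span and the flanking protein-coding genes were named, and genes of the other lists were named where their state differed between the lists. Aldh1a2 and Cyp26b1 were named after their values were seen. Members and lists were chosen with earlier results of these data known. With a single library per group no p-value was computed. No replicate exists to check a difference between lists.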

Additional observations from a re-analysis of the deposited data

How the results depend on the processing

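The 13 counts, lengths and shares given for the cluster were recomputed under 13 other settings and under 3 more (peaks within 20000 bases merged, coding sequence alone, and start codons) that were chosen after the data were seen. Of the 111 recomputed values, 103 stayed within 1.5 times the reported value and 8 moved below that. Some settings could not move a value, since the peak caller already used a gap of 10000 bases and a minimum size of 1000 bases. A value within the limit can also rest on a changed set of genes, so 103 is not a measure of robustness. When 50% of the gene body had to be covered, 5 members had a control peak and 1, Hoxb13, an H3.3 K27M peak, and 2, Hoxb5 and Hoxb4, had a control peak without an EZHIP peak, since Hoxb7, Hoxb6 and Hoxb3 in the control and Hoxb9 with H3.3 K27M are covered over less of their length. Without Hoxb13 and the interval up to Hoxb9, 52628 bases were covered in the control, 12229 with EZHIP and 1229 with H3.3 K27M, and the shares of control bases kept were 23.2% and 2.34%, because the span then begins inside the second peak. A window of 10000 bases added Hoxb6 to the members with an EZHIP peak and Hoxb8 to those with an H3.3 K27M peak. Without any window Hoxb7 left the EZHIP list. Peaks within 20000 bases merged joined the control peaks on both sides of the Hoxb6 start, and the Hoxb6 start then lay in a peak. Minimum widths of 1000 and 5000 bases and merging within 10000 bases changed none of the values for which they were run, since every peak here is wider and farther from the next. The lists hold no depth, so how close the lost parts came to a peak was not tested. No paired analysis was possible because each group has a single library.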
